A study of Mus musculus with 29 samples.

Results

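Keratins are the intermediate filament proteins of epithelial cells, and the genes described here are the 53 protein-coding mouse genes named Krt followed by a number, out of 54532 genes in a table of raw counts from mouse colon. They were found by their symbols alone, and 1 further gene with such a symbol was left out because the annotation lists it as a pseudogene. RNA-seq of colon tissue was available for 29 mice in 6 colitis models and 3 control groups. The labels give 3 untreated Balb/C mice (wild-type control) for Balb/C mice given 3% DSS in the drinking water for 5 days and culled at day 10 (DSS, n = 3), Balb/C mice given 3 mg DNBS rectally in 200 µl of 50% ethanol (DNBS, n = 3), and Balb/C mice given IL10 blocking antibody (IL-10 deficiency, n = 4), for which the protocol names 750 µg of anti-IL-10R and culling after 4 weeks unless colitis showed before. They give 3 untreated C57BL/6 Rag1-/- mice (Rag1-/- control) for C57BL/6 Rag1-/- mice that received naive CD4 T cells (TCT, n = 3; 500000 cells, culled after 6 to 8 weeks, with hosts called Rag2-/- in the protocol) and for C57BL/6 Rag1-/- mice given 50 µg of agonistic anti-CD40 and culled after 7 days (anti-CD40, n = 3). They give 3 untreated Balb/C Rag2-/- mice (Rag2-/- control) for untreated Balb/C Tbx21-/- x Rag2-/- mice, which develop colitis spontaneously (TRUC, n = 4). Age and sex are not in the labels used here, and whether mice of a group shared a cage or litter is not stated.

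Genotype and strain were checked first, because a keratin difference is read against the control it is paired with. A deleted gene can still give reads outside its deleted part, so its counts alone do not test a label. Rag2 had 15 to 25 counts in the Rag2-/- controls and 57 to 94 in TRUC, Tbx21 had 26 to 52 in TRUC against 1 to 7 in the Rag2-/- controls, and Rag1 had 20 to 33 in TCT. The libraries labelled Rag1-/- control had 0 to 4 counts of Rag1 and 6 to 20 of Rag2, and those labelled anti-CD40 had 0 to 2 and 48 to 99, which is the pattern of the libraries labelled Rag2-/- and not that of TCT. H2-Ea-ps, the locus of an MHC class II chain that C57BL/6 mice do not express and Balb/C mice do, had 784 to 3956 counts in the 13 libraries labelled Rag1-/- control, anti-CD40, Rag2-/- control and TRUC and 0 or 1 count in the other 16. The labels of strain were therefore not matched by the data for the groups labelled wild-type control, DSS, DNBS, IL-10 deficiency, Rag1-/- control and anti-CD40, and TCT and the control paired with it differed at this locus. Counts of Il10 were 1 to 4 in the wild-type controls and 61 to 111 in mice of the IL-10 model. For this model the methods of the study name Il10-/- mice and no antibody, and for DSS they name C57BL/6 mice, so the labels and the methods differ on both. Strain and T-cell transfer cannot be told apart in that comparison, and TCT is given against the wild-type controls as well.

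Keratins assemble as pairs of an acidic type I and a basic type II protein. Simple epithelia such as the colon lining use Krt8 (type II) with Krt18 and Krt19 (type I), with Krt20 (type I) at the crypt top and surface and Krt7 (type II) better known from ducts and urothelium. Stratified epithelia use other pairs, Krt5 with Krt14 in the basal layer, Krt1 with Krt10 in the epidermis above it and Krt4 with Krt13 in moist mucosa, while Krt6a, Krt6b, Krt16 and Krt17 are known for their induction after wounding. Further sets belong to the inner root sheath of the hair follicle and to hair and nail. The genes lie in a type I cluster on chromosome 11 and a type II cluster on chromosome 15, with Krt18 beside Krt8 on chromosome 15.

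Promoter sequences are shown for the keratins that were higher in the largest number of models, Krt84 and Krt90 in 6 of 6 and Krt20 in 5 of 6, and for Krt36, which had the highest mean CPM among hair and nail keratins. Krt80, higher in 5 of 6, had no entry in the promoter table. Each run is 300 bases, 250 before and 50 after the RefSeq start, on GRCm38.p6, read 5′ to 3′ on the minus strand that carries the gene, at chr11:99438104-99438403 (Krt20), chr15:101532771-101533070 (Krt84), chr15:101562901-101563200 (Krt90) and chr11:100105577-100105876 (Krt36). Capitals mark TATAAA on either strand, the core of a TATA box.
Krt20: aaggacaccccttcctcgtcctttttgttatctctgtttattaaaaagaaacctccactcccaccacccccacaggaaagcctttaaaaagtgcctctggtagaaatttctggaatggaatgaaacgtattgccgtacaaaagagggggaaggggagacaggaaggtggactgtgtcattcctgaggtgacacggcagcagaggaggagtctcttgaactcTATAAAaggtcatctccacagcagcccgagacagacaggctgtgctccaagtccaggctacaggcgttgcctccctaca
Krt84: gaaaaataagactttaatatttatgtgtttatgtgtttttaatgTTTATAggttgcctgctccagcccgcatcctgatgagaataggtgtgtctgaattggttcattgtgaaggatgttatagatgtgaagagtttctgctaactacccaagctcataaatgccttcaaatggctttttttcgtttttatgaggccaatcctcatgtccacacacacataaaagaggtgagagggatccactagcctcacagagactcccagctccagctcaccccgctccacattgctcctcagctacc
Krt90: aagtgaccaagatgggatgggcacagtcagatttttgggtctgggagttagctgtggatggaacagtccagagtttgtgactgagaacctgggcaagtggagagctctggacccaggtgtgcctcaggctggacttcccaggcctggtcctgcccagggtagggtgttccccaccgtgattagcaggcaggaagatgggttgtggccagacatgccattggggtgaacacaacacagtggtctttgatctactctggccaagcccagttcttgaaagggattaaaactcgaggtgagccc
Krt36: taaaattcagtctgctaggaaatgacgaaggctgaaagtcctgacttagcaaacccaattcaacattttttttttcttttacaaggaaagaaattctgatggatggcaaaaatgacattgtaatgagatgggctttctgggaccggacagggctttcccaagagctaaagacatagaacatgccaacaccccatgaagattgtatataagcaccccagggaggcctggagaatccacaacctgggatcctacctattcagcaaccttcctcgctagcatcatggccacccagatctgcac
Krt20 held TATAAA starting 29 bases before the start, where a TATA box usually sits. Krt84 held it on the other strand 206 bases before the start, and Krt90 and Krt36 did not hold these letters in this window. RefSeq promoters were matched for 36 of the 53 keratins (37 windows, Krt13 having 2 starts), of which 19 windows (51.4%) held TATAAA against 13.6% of all 32851 promoter windows of this length. TTCNNNGAA, the motif of STAT factors, was in 4 of the 37 windows (10.8%) and 8.3% of all, and TGANTCA, the motif of AP-1, in 2 of 37 (5.41%) and 7.81% of all, both of them windows of Krt13.

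In colon the 5 simple keratins made up nearly all keratin RNA. On CPM, counts per 1000000 counts of a library scaled by TMM, and divided by exonic length, they held 97.7% to 99.7% of the summed keratin level in 28 of the 29 mice, and 91.1% in DNBS mouse 11. In the wild-type controls Krt8 took 50.6% ± 0.875 of that level (SD, n = 3), Krt19 34.0% ± 0.329, Krt18 7.62% ± 0.209, Krt20 6.58% ± 0.712 and Krt7 0.607% ± 0.0351. Testing required 3 or more counts on average across the 29 mice, and 30 of the 53 genes passed, being 5 of 5 simple keratins, 14 of 18 of stratified epithelium, 3 of 8 of the inner root sheath and companion layer, 4 of 16 of hair and nail and 4 of 6 others. Of the 23 that did not pass, Krt9, Krt40 and Krt82 had 0 counts in all mice and 11 in all had at most 3 counts in any mouse. A count of 0 allowed up to 3 counts, or 0.179 to 0.314 CPM by mouse, which covers counting error only. A gene could pass through a few mice in which it was high, so counts over the genes that passed are descriptions.

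The mean share taken by Krt20 was higher in each model than in its control. Per length it was 20.8% ± 2.94 of keratin RNA in IL-10 deficiency (SD, n = 4), 19.5% ± 8.47 in DSS (n = 3) and 9.77% ± 4.25 in DNBS (n = 3), against the wild-type 6.58%. It was 16.6% ± 1.71 in TCT and 16.3% ± 2.62 in anti-CD40 (n = 3 each), against 8.49% ± 1.04 in the controls labelled Rag1-/- (n = 3), and 16.2% ± 0.217 in TRUC (n = 4) against 8.31% ± 0.665 in the Rag2-/- controls (n = 3). The balance of type II (Krt7 and Krt8) over type I (Krt18, Krt19 and Krt20) per length, as log2, was 0.02 to 0.12 in the wild-type controls and -0.37 to -0.21 in IL-10 deficiency, -0.60 to -0.08 in DSS and -0.25 to -0.08 in DNBS, with no overlap. It was also lower without overlap in TCT (-0.28 to -0.21) and anti-CD40 (-0.23 to -0.13) than in the controls labelled Rag1-/- (-0.11 to -0.02), and in TRUC (-0.23 to -0.20) than in the Rag2-/- controls (-0.06 to 0.06). These shares were not tested, since they are made of the levels tested next.

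Krt20, the keratin of differentiated surface colonocytes, rose in 5 of the 6 models. In the wild-type controls its level was 368, 360 and 526 CPM. It was 1692, 2424, 2136 and 3472 CPM in IL-10 deficiency, 675, 824 and 1238 in DSS, and 566, 482 and 1343 in DNBS. IL-10 deficiency and DSS lay above all wild-type controls and 1 DNBS mouse lay within their range. The fold change was 5.82 in IL-10 deficiency (log2 2.54 ± 0.30 SE, adjusted p = 8.01e-07) and 2.18 in DSS (log2 1.13 ± 0.29, adjusted p = 0.00477). In DNBS the log2 difference was 0.93 ± 0.29 with adjusted p = 0.0568. In the controls labelled Rag1-/- it was 540, 559 and 687 CPM, against 1398, 1689 and 1615 in TCT (2.63-fold, adjusted p = 0.000837) and 1346, 1879 and 1309 in anti-CD40 (2.54-fold, adjusted p = 0.00256). In the Rag2-/- controls it was 574, 717 and 657 CPM, against 1684, 1763, 1918 and 1727 in TRUC (2.73-fold, adjusted p = 0.000287). The models of the Rag-deficient groups lay above all their controls. Against the wild-type controls the TCT difference was 3.75-fold (adjusted p = 7.74e-05). Without DSS mouse 8 the DSS call was lost (log2 0.84, adjusted p = 0.0509), and without DNBS mouse 11 Krt20 was called in DNBS (log2 1.13, adjusted p = 0.0213; called in 2 of the 6 fits without a mouse).

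Krt7 rose in 4 models. Its level was 142, 127 and 150 CPM in the wild-type controls and 328, 397 and 355 in DNBS (2.58-fold, log2 1.37 ± 0.24 SE, adjusted p = 0.00265). It was 347, 262, 143 and 391 CPM in IL-10 deficiency, of which 1 mouse lay among the controls (2.05-fold, adjusted p = 0.000705). TRUC mice had 354, 461, 411 and 304 CPM against 143, 152 and 156 in the Rag2-/- controls, with no overlap (2.54-fold, adjusted p = 8.2e-05). TCT mice had 214, 354 and 259 CPM against 164, 172 and 141 in the controls labelled Rag1-/- (1.73-fold, adjusted p = 0.0143). That call was lost without TCT mouse 3 or control mouse 4 (adjusted p up to 0.100). In DSS the level was lower than in every control, at 91.9, 94.6 and 103 CPM, and the log2 difference of -0.53 ± 0.24 gave adjusted p = 0.0896 (0.0204 with edgeR on the 2 groups alone). In anti-CD40 it was 176, 198 and 130 CPM (log2 0.08 ± 0.24, adjusted p = 0.851).

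Krt8, Krt18 and Krt19, the main filament proteins of the colonocyte, moved in opposite directions in DSS and IL-10 deficiency. Krt8 was 3130, 2993 and 3579 CPM in the wild-type controls, 2149, 2686 and 1647 in DSS and 4490, 5125, 4521 and 6245 in IL-10 deficiency, with no overlap on either side. Krt8 shared 29.7% of its exon windows with a pseudogene, Krt8-ps, and with Gm36026 on the opposite strand, so its counts may be split among them. Krt8 fell by 0.58 on the log2 scale in DSS (SE 0.15, adjusted p = 0.00345) and rose 1.57-fold in IL-10 deficiency (adjusted p = 0.000401). Krt19 fell by 0.71 in DSS (SE 0.17, adjusted p = 0.00198), from 1951, 1899 and 2347 CPM to 1368, 1593 and 824, and rose 1.52-fold in IL-10 deficiency (adjusted p = 0.00234), to 2774, 3234, 2941 and 3655. Krt18 fell by 0.44 in DSS (SE 0.12, adjusted p = 0.00724) and rose 1.35-fold in IL-10 deficiency (adjusted p = 0.00308) and 1.38-fold in DNBS (adjusted p = 0.0265). The level of Krt18 was 352, 320 and 404 CPM in the wild-type controls, 230, 260 and 303 in DSS, 489, 538, 440 and 468 in IL-10 deficiency and 479, 454 and 548 in DNBS. DSS mouse 8 had the lowest Krt8 and Krt19 of all 29 mice, and without it the falls in DSS were 0.42, 0.48 and 0.55 for Krt8, Krt19 and Krt18 on the log2 scale and were called (adjusted p = 0.0381, 0.0166 and 0.00477). The Krt18 call in DSS was lost without wild-type control mouse 4 (adjusted p = 0.0537), and that in DNBS without wild-type mouse 1 or 2 or DNBS mouse 16 (up to 0.131). Fitted with edgeR on the 2 groups alone, the falls of Krt8, Krt19 and Krt18 in DSS were not called (adjusted p = 0.0686, 0.0756 and 0.0621), while DESeq2 on the same groups called all 3. In bulk tissue, fewer epithelial cells and less keratin RNA per cell cannot be told apart.

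The other models gave few calls for these keratins. In DNBS the level of Krt8 was 3236, 3198 and 4112 CPM (log2 0.12 ± 0.14 SE, adjusted p = 0.641) and that of Krt19 was 2181, 2344 and 2753 CPM (log2 0.23 ± 0.16, adjusted p = 0.395), and both overlapped the wild-type controls. In TRUC Krt8 was 1.27-fold higher (4747 to 5275 CPM against 3831 to 3930, adjusted p = 0.0400) and Krt18 was 1.27-fold higher (566 to 663 against 454 to 520, adjusted p = 0.0158), while Krt19 had a log2 difference of 0.30 ± 0.15 SE (adjusted p = 0.115) although its 4 TRUC mice lay above the controls. The Krt8 call was kept in only 1 of the 7 fits without a mouse (without TRUC mouse 2; adjusted p 0.0486 to 0.102), and the Krt18 call was lost without Rag2-/- control mouse 1 (adjusted p = 0.0777). Both TRUC calls were also lost under upper quartile scaling. In TCT and anti-CD40 the log2 differences of Krt8 were 0.34 and 0.35 (SE 0.14 each) and those of Krt19 0.34 and 0.28 (SE 0.16 each), with all model mice above all controls and adjusted p of 0.0789, 0.0836, 0.125 and 0.240. Krt18 differed by -0.09 in TCT (adjusted p = 0.601) and by -0.27 in anti-CD40 (adjusted p = 0.117). The Rag2-/- controls had counts of Rag2 (15 to 25) and H2-Ea-ps (784 to 1462) below those in anti-CD40 (48 to 99 and 2262 to 2512). The controls labelled Rag1-/- had 6 to 20 and 787 to 1011, so these counts did not set the control groups apart. Against the Rag2-/- controls Krt18 was called lower in anti-CD40 (log2 -0.37, adjusted p = 0.028). The differences of Krt8 and Krt19 against them were 0.16 and 0.13 (adjusted p = 0.436 and 0.613). Against the wild-type controls Krt8 and Krt19 were called higher in TCT (1.34-fold and 1.38-fold, adjusted p = 0.0315 and 0.0350).

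**Figure D1:**
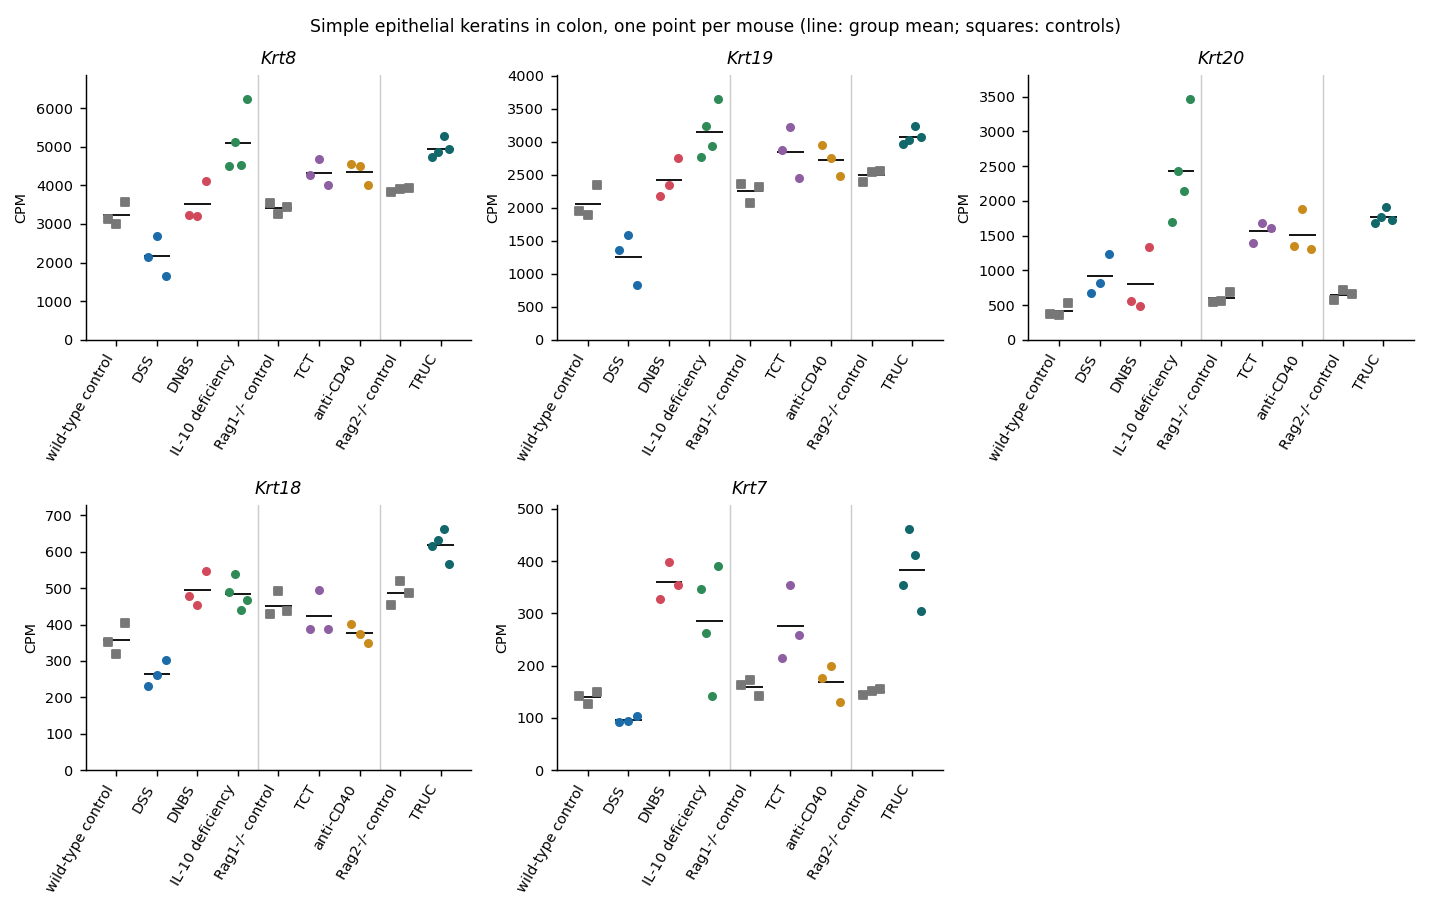
CPM (linear axes from 0) of Krt8, Krt19, Krt20, Krt18 and Krt7 in 29 mice by group, with a point per mouse, squares for controls, a line at each group mean and grey lines between sets of groups that share a control. Krt20 lies above the controls in every mouse of IL-10 deficiency, DSS, TCT, anti-CD40 and TRUC, while Krt8 and Krt19 lie below the wild-type controls in DSS (Krt8 1647 to 2686 CPM) and above them in IL-10 deficiency.

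Counted over the 5 simple keratins, 5 were higher in IL-10 deficiency, 4 in TRUC, 2 in DNBS, 2 in TCT, 1 in DSS and 1 in anti-CD40, and 3 were lower in DSS. Of all 18616 genes tested, 27.2% were higher in IL-10 deficiency, 22.4% in TRUC, 3.95% in DNBS, 16.1% in TCT, 17.7% in DSS and 10.9% in anti-CD40, and 16.3% were lower in DSS. The median log2 difference of the 5 genes was 0.66 in IL-10 deficiency, 0.46 in DNBS, 0.35 in TRUC, 0.34 in TCT, 0.28 in anti-CD40 and -0.53 in DSS, against -0.03 to 0.02 over all genes. Upper quartile scaling moved the median of all genes by -0.17 in IL-10 deficiency and -0.11 in TRUC, and the share of higher calls from 51.0% to 38.4% in IL-10 deficiency and from 64.1% to 51.0% in DNBS. No called keratin changed sign under any scaling.

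Epithelial content was set against the keratins through Epcam and Cdh1, membrane proteins of all epithelial cells. With all mice included Epcam was called in IL-10 deficiency alone (log2 0.61) and Cdh1 in no model. Without DSS mouse 8 Cdh1 was called lower in DSS (log2 -0.40, adjusted p = 0.0252), while Epcam was not called (log2 -0.28, adjusted p = 0.174). Other markers of tissue makeup changed in some models. In IL-10 deficiency 4 of 5 colon epithelium genes were higher (27.2% of all genes). The log2 differences were 1.16 for Cldn7, 4.93 for Cdx2 and 1.06 for Vil1 beside Epcam. Cdx2 was uneven, at 15.6, 11.3, 167 and 469 CPM in the 4 mice against 3.884 to 8.115 in the wild-type controls. In the same model 4 of 5 smooth muscle genes were lower (26.1% of all genes), among them Myh11 (-1.46) and Acta2 (-1.18). The summed level of the 5 smooth muscle genes was 2624 to 4946 CPM in IL-10 deficiency against 6479 to 8047 in the wild-type controls. In TRUC Cldn7 (0.60) and Vil1 (0.43) were higher and Myh11 (-1.20) and Acta2 (-0.85) lower, with 2964 to 4346 CPM of smooth muscle genes against 5971 to 6578. Cldn7 (0.64) and Vil1 (0.55) were higher in anti-CD40, and Cdx2 was lower in TCT against the controls labelled Rag1-/- (-2.56). Its level was 20.4, 13.0 and 7.69 CPM in TCT and 73.3 to 93.1 in those controls, but 3.884 to 8.115 in the wild-type controls. The direction for Cdx2 in TCT thus depended on the control. In DSS and DNBS 0 of 5 colon epithelium genes were called, and in DSS, DNBS, TCT and anti-CD40 0 of 5 smooth muscle genes. The part of tissue makeup in the keratin levels was not tested. The log2 of the summed CPM of the 5 simple keratins minus the mean log2 CPM of Epcam and Cdh1 was 2.77 ± 0.13 in IL-10 deficiency (SD, n = 4) against 2.28 ± 0.07 in the wild-type controls (n = 3), a difference of 0.49 with exact two-sided permutation p = 0.0286 (0.0857 adjusted over 6 models). In TRUC it was 2.91 ± 0.08 (n = 4) against 2.39 ± 0.13 (n = 3), a difference of 0.51 (exact permutation p = 0.0286, adjusted 0.0857). In TCT and anti-CD40 it was 2.91 ± 0.18 and 2.60 ± 0.10 against 2.26 ± 0.01 in the controls labelled Rag1-/- (n = 3 each), differences of 0.66 and 0.34 (exact permutation p = 0.100 each, adjusted 0.150). In these 4 models every mouse lay above every control. In DNBS the difference was 0.19 (exact permutation p = 0.300, adjusted 0.360) and in DSS -0.16 (p = 0.600, adjusted 0.600), both with overlap, and without DSS mouse 8 the latter was 0.02. With 3 mice against 3 the smallest p is 0.100 and with 4 against 3 it is 0.0286, so none could pass after adjustment. With Krt20 left out, the differences were 0.25 in IL-10 deficiency, 0.38 in TRUC, 0.53 in TCT and 0.21 in anti-CD40. Against Vil1, a brush border protein that was itself called higher in IL-10 deficiency, TRUC and anti-CD40, the difference turned to -0.18 in IL-10 deficiency and -0.14 in anti-CD40 and was 0.06 in TRUC and 0.13 in TCT.

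**Figure D2:**
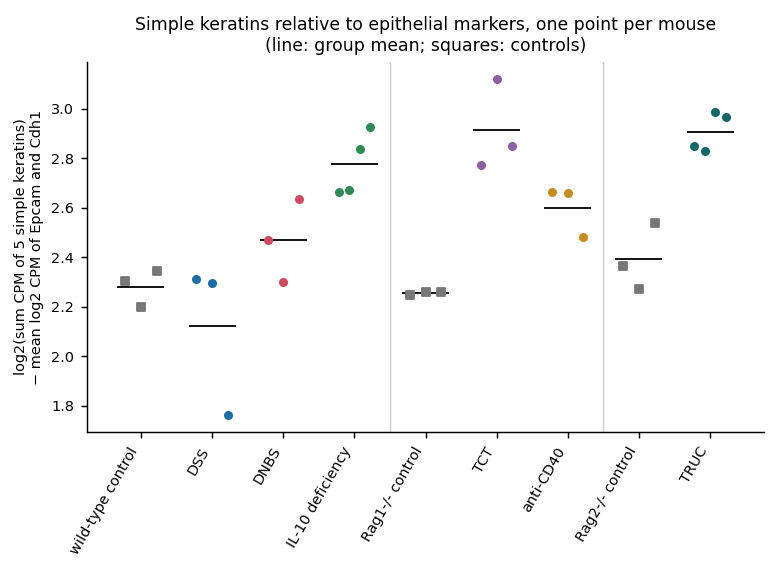
Log2 of the summed CPM of the 5 simple keratins minus the mean log2 CPM of Epcam and Cdh1, with a point per mouse, squares for controls and a line at each group mean. TRUC, IL-10 deficiency, TCT and anti-CD40 lie wholly above their controls, and DSS mice spread from 1.76 to 2.31.

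Outside the simple class, 25 keratins were tested. Of these 14 were higher in DNBS, 9 in TRUC, 8 in IL-10 deficiency, 7 in DSS, 4 in TCT and 2 in anti-CD40, to be read against the shares of all genes given above. Lower were 2 in anti-CD40, 1 in TCT, 1 in IL-10 deficiency and 1 in TRUC, against 10.7%, 14%, 26.1% and 23.4% of all genes. In DNBS edgeR called 0 keratins lower, against 2.21% of all genes, with 0 at an unadjusted p under 0.05 and 0 by DESeq2 on the 2 groups. In DSS edgeR called 0 non-simple keratins lower, with 0 at an unadjusted p under 0.05, while DESeq2 on the 2 groups called 4 keratins of any class lower. Over all 30 keratins the calls were 16 in DNBS, 14 in TRUC, 14 in IL-10 deficiency, 11 in DSS, 7 in TCT and 5 in anti-CD40. Fitted on the 2 groups alone, DNBS had 10 calls with DESeq2 and 5 with edgeR, and anti-CD40 had 10 and 12. Of all genes DESeq2 called 1108 higher and 773 lower in DNBS and edgeR 411 and 217, against 736 and 412 in the main fit. In anti-CD40 DESeq2 called 2312 and 1753 and edgeR 2114 and 1853, against 2029 and 1986. Without wild-type control mouse 1 or mouse 2 there were 6 keratins called in DNBS. Those fits called 156 or 171 of all genes higher and 42 or 76 lower. Without DNBS mouse 11, which stands apart as described further on, 24 keratins could be tested in DNBS, of which 10 were higher and Krt83 was lower. That fit called 1365 of all 18549 genes higher and 977 lower in DNBS. Without DSS mouse 8 there were 4 higher and 3 lower of 29 keratins in DSS, against 1940 and 1895 of all 18591 genes.

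**Figure D3:**
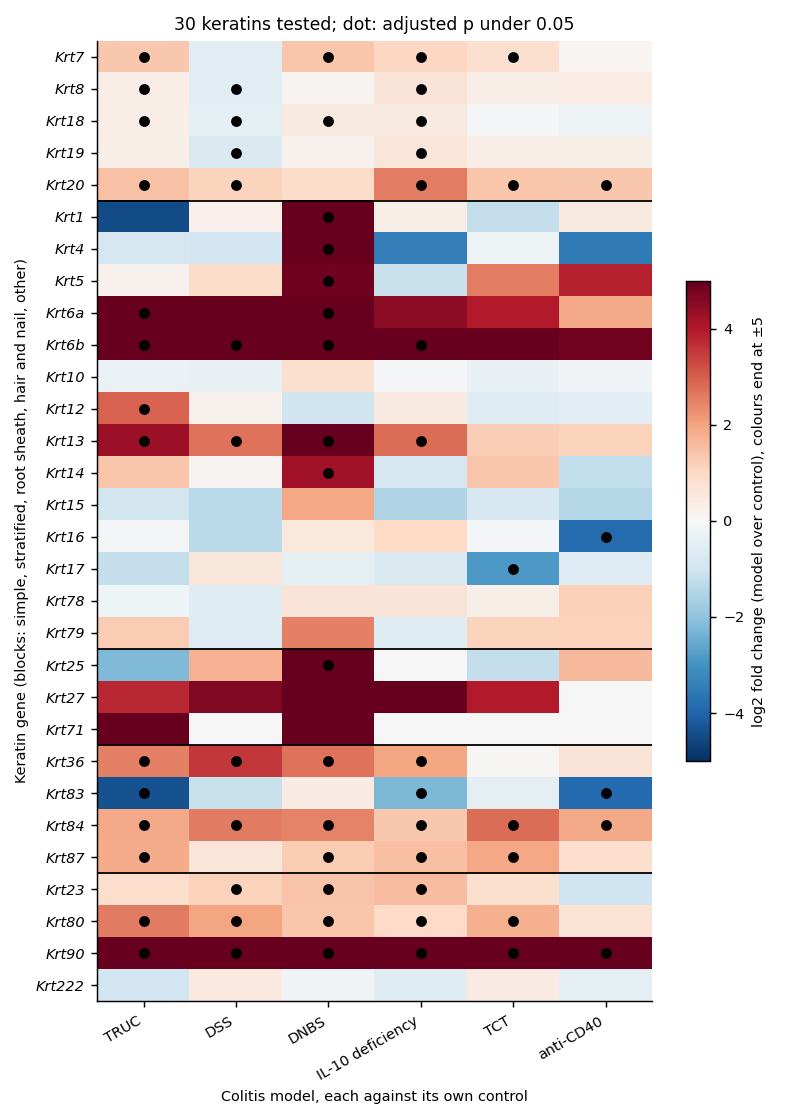
Log2 fold change (model over its control, edgeR; colours end at ±5) of the 30 keratins tested in 6 models, in blocks for simple, stratified, inner root sheath, hair and nail and other keratins, with a dot where the adjusted p was under 0.05. Krt84 and Krt90 have a dot in every model and Krt20 in 5. The stratified block has more dots in DNBS than in any other model. Without DNBS mouse 11 only Krt13 and Krt6b of this block were called in DNBS. Deep colours without a dot are genes with few counts.

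Krt84, a type II keratin of nail and tongue papillae, rose in every model. The wild-type controls had 1.37, 0.998 and 1.80 CPM, against 9.18, 11.1 and 4.87 in DSS, 9.13, 8.29 and 5.54 in DNBS and 2.44, 4.26, 5.23 and 2.30 in IL-10 deficiency. All model mice lay above the controls. The folds were 6.05 in DSS (log2 2.60 ± 0.41 SE, adjusted p = 5.84e-05), 5.53 in DNBS (adjusted p = 0.00146) and 2.57 in IL-10 deficiency (adjusted p = 0.00629). TCT mice had 4.97, 7.00 and 2.87 CPM and anti-CD40 mice 2.72, 2.48 and 2.58, against 0.810, 0.442 and 0.860 in the controls labelled Rag1-/- (7.02-fold and 3.68-fold, adjusted p = 4.19e-05 and 0.00574). TRUC mice had 4.27, 3.20, 3.48 and 2.77 CPM, against 0.531, 0.535 and 1.66 in the Rag2-/- controls (3.71-fold, adjusted p = 0.000907). Of its 50-base exon windows 0% were shared with another gene. The TCT difference against the wild-type controls was 3.57-fold (adjusted p = 0.00195), and the calls in all 6 models held in each fit that left out a mouse (adjusted p up to 0.0422). In TRUC the log2 difference was 1.89, and 2.66 without Rag2-/- control mouse 4.

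Krt90, a type II keratin, had 0 counts in all 3 wild-type controls and all 3 controls labelled Rag1-/-, and 0, 0.0765 and 0.0755 CPM (0 or 1 count) in the Rag2-/- controls. Every mouse of every model had it, at 4.65, 5.13 and 26.1 CPM in DSS, 0.895, 9.84 and 1.19 in DNBS, 1.095, 1.143, 3.09 and 1.78 in IL-10 deficiency, 4.54, 1.02 and 1.02 in TCT, 2.53, 6.08 and 1.79 in anti-CD40, and 3.83, 11.8, 5.59 and 1.79 in TRUC. Against the mean level of 3 counts per control library, it was at least 53.2-fold higher in DSS, 17.7-fold in DNBS, 14.4-fold in anti-CD40, 9.12-fold in TCT and 7.90-fold in IL-10 deficiency. In TRUC the ratio of summed counts was 105 (95% exact counting interval 28.8 to 871). All 6 differences were called (adjusted p between 0.000254 in DSS and 0.0141 in DNBS). The DNBS call was lost without wild-type mouse 1 or 2 or DNBS mouse 14 (adjusted p up to 0.0978), and the DSS bound was 21.8-fold without mouse 8. Without the highest mouse the fitted log2 difference went from 10.21 to 8.93 in DSS (mouse 8), from 8.62 to 6.71 in DNBS (14), from 7.78 to 6.69 in TCT (1), from 8.43 to 7.75 in anti-CD40 (7) and from 6.51 to 5.89 in TRUC (3), and apart from DNBS these calls held. A predicted gene, Gm44393, overlaps exons of Krt90 on the opposite strand, and without a stated strand setting reads of the pair cannot be told apart.

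Krt36, a type I keratin of hair, nail and tongue, rose in DSS, DNBS, IL-10 deficiency and TRUC. The wild-type controls had 1.29, 1.33 and 1.80 CPM, DSS mice 34.1, 10.0 and 7.43 (11.7-fold, log2 3.54 ± 0.64 SE, adjusted p = 0.000216), DNBS mice 10.9, 9.69 and 8.35 (6.54-fold, adjusted p = 0.0153) and IL-10 deficiency mice 6.82, 10.7, 4.37 and 1.36 (3.93-fold, adjusted p = 0.01), of which 1 lay among the controls. TRUC mice had 26.5, 20.1, 48.5 and 20.2 CPM against 2.30, 3.59 and 8.91 in the Rag2-/- controls (5.79-fold, adjusted p = 0.00086). In TCT (4.91 to 9.82 CPM) and anti-CD40 (9.47 to 13.9) it overlapped the controls labelled Rag1-/- (4.86, 6.04 and 10.8), with log2 differences of 0.06 and 0.65 that were not called. Against the lower wild-type controls TCT was 5.08-fold higher (adjusted p = 0.00805). The DNBS call was lost without wild-type mouse 1 or 2 (adjusted p up to 0.0799). The log2 difference was 2.56 in DSS without mouse 5 and 3.28 in TRUC without Rag2-/- control mouse 4, both called. Krt36 shared 0.432% of its windows with another gene.

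Of the other hair and nail keratins, Krt87 (type II) rose in IL-10 deficiency (2.81-fold, adjusted p = 0.000337), TRUC (3.59-fold, adjusted p = 0.000155), TCT (3.87-fold, adjusted p = 0.00015) and DNBS (2.43-fold, adjusted p = 0.0201). Its level was 2.79 to 3.39 CPM in the wild-type controls, 6.26 to 10.5 in IL-10 deficiency and 6.33 to 7.91 in DNBS, 0.796 to 1.76 in the Rag2-/- controls and 2.87 to 6.05 in TRUC, and 0.860 to 1.77 in the controls labelled Rag1-/- and 4.19 to 5.64 in TCT, with no overlap in any of the 4. The TCT call was lost against the wild-type controls, and the DNBS call in 5 of 6 fits without a mouse, all but that without mouse 11 (adjusted p up to 0.0924). Krt83 (type II) went the other way and fell in TRUC by 4.36, in anti-CD40 by 3.90 and in IL-10 deficiency by 2.26 on the log2 scale (adjusted p = 0.000621, 0.00716 and 0.0356). Its level was 1.95, 2.52 and 2.49 CPM in the Rag2-/- controls and 0 to 0.221 in TRUC, 1.38 to 3.00 in the controls labelled Rag1-/- and 0 to 0.287 in anti-CD40, and 0.865 to 1.31 in the wild-type controls and 0.104 to 0.429 in IL-10 deficiency. The IL-10 deficiency call was lost in 5 of 7 fits without a mouse, kept only without wild-type mouse 2 or IL-10 deficiency mouse 3 (adjusted p up to 0.0790). The log2 difference was -5.09 in TRUC without mouse 2 and -5.31 in anti-CD40 without mouse 8. In DNBS mouse 11 Krt83 was 4.06 CPM and in the other DNBS mice 0.0775 and 0.171, and without mouse 11 it was lower in DNBS (log2 -3.14, adjusted p = 0.0123). Krt83 and Krt87 shared 22.1% and 36.9% of their windows with other hair keratins, so reads may have been assigned between them.

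Among the keratins of no set class, Krt80 (type II) rose in TRUC (6.11-fold, adjusted p = 1.85e-05), DSS (3.92-fold, adjusted p = 0.000503), TCT (3.46-fold, adjusted p = 0.00136), DNBS (2.60-fold, adjusted p = 0.0373) and IL-10 deficiency (1.92-fold, adjusted p = 0.0400). TRUC mice had 12.3, 8.62, 8.61 and 6.02 CPM and the Rag2-/- controls 0.973, 1.99 and 1.36. The wild-type controls had 1.60 to 2.30 CPM, DSS 3.84 to 12.4, DNBS 3.58 to 6.86 and IL-10 deficiency 3.03 to 4.49, all without overlap, and TCT had 4.91 to 7.35 against 1.29 to 2.21. Without DSS mouse 8 the log2 difference in DSS was 1.38 in place of 1.97 (adjusted p = 0.00949). A predicted gene on the opposite strand, Gm35853, overlaps exons of Krt80 (2.74% of its windows were shared), and without a stated strand setting their reads cannot be told apart. The DNBS call was kept only without mouse 16 (adjusted p up to 0.144) and the IL-10 deficiency call was lost without wild-type mouse 1 or 2 or IL-10 deficiency mouse 2 or 4 (up to 0.125). Krt23 (type I) rose in IL-10 deficiency (2.94-fold, adjusted p = 0.00313), DNBS (2.72-fold, adjusted p = 0.0459) and DSS (2.22-fold, adjusted p = 0.0407). Wild-type mouse 4 had 9.10 CPM of Krt23 against 3.66 and 3.33 in the other controls, and the 4 IL-10 deficiency mice spread from 5.22 to 25.04. Without wild-type mouse 4 the log2 differences of Krt23 rose to 2.16 from 1.56 in IL-10 deficiency, to 2.05 from 1.44 in DNBS and to 1.76 from 1.15 in DSS. The DSS and DNBS calls of Krt23 were lost without wild-type mouse 1 or 2 and without DSS mouse 6 or 8 and DNBS mouse 14 or 16 respectively (adjusted p up to 0.168 and 0.188).

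**Figure D4:**
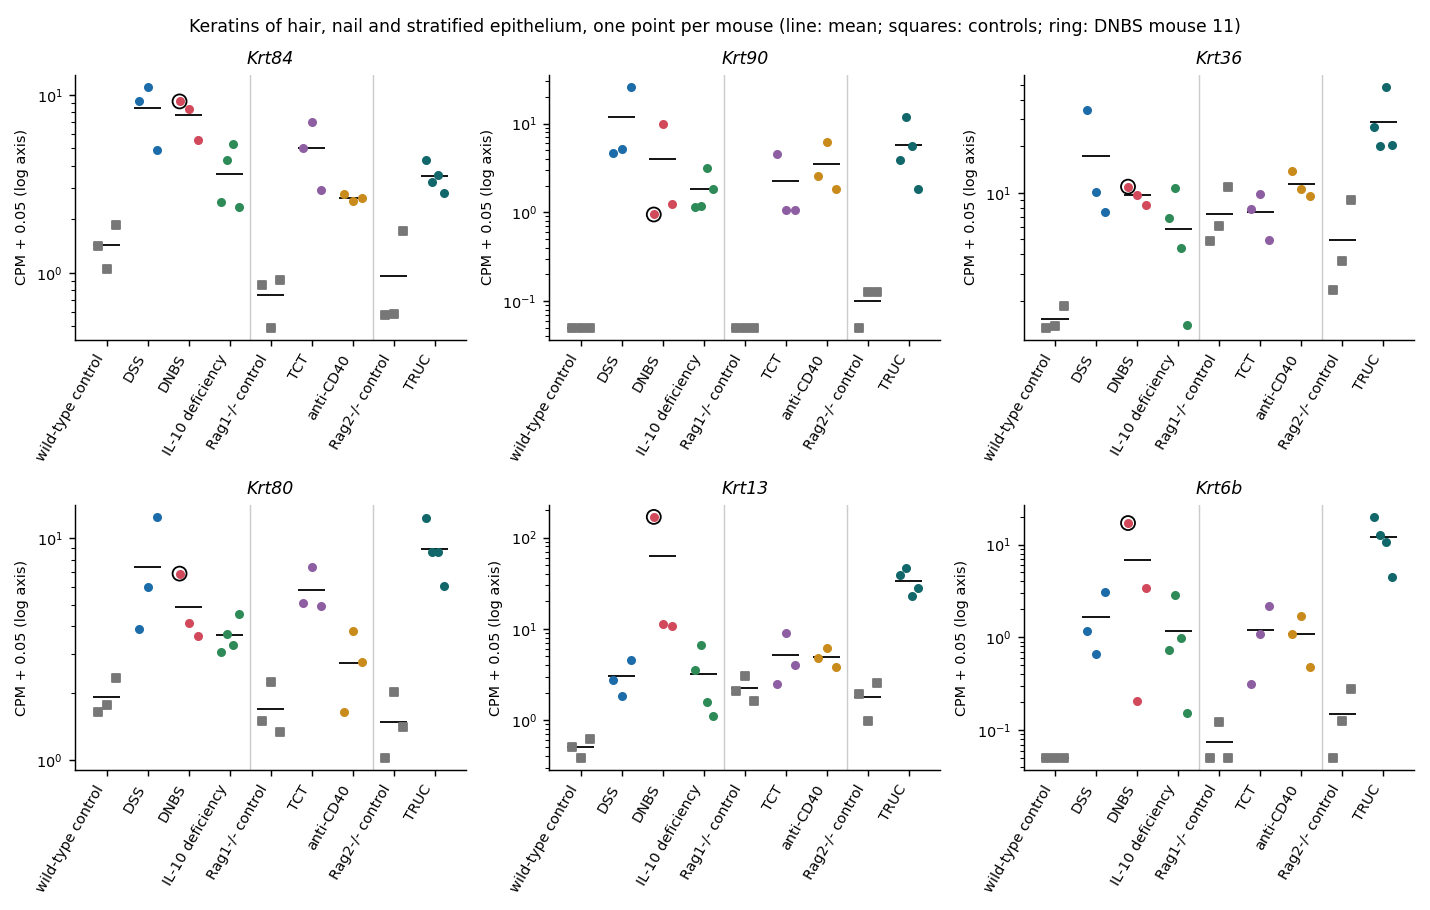
CPM + 0.05 (log axes) of Krt84, Krt90, Krt36, Krt80, Krt13 and Krt6b in 29 mice by group, with a point per mouse, squares for controls, a line at each mean and a ring around DNBS mouse 11. Krt90 is at or near 0 in all 9 controls and above 0 in all 20 colitis mice; Krt13 and Krt6b reach their highest or near highest level in the ringed mouse and in TRUC.

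Among stratified keratins, Krt13, the type I keratin of moist mucosa, rose in 4 models against their labelled controls. The wild-type controls had 0.457, 0.333 and 0.574 CPM, DNBS mice 169, 11.2 and 10.8, DSS mice 2.70, 1.78 and 4.48 and IL-10 deficiency mice 3.45, 6.54, 1.54 and 1.04. TRUC mice had 38.5, 45.9, 22.9 and 27.8 CPM against 1.86, 0.918 and 2.49 in the Rag2-/- controls (19.1-fold, log2 4.26 ± 0.83 SE, adjusted p = 0.000268). None of these groups overlapped its controls. In DNBS the fold was 139 (log2 7.12, adjusted p = 0.000616), and without mouse 11 the log2 difference was 4.58 (adjusted p = 0.000234). The fold was 6.48 in DSS (adjusted p = 0.0485) and 6.84 in IL-10 deficiency (adjusted p = 0.0248). The DSS call was kept only without mouse 6 (adjusted p up to 0.175), and the IL-10 deficiency call was lost without any 1 of the wild-type mice or IL-10 deficiency mouse 2 (up to 0.0962; log2 2.17 in place of 2.77 without the last). In TCT (2.44 to 9.06 CPM) and anti-CD40 (3.73 to 6.17) it was not called against the controls labelled Rag1-/- (1.55 to 3.02), but against the wild-type controls it was called higher in TCT (11.3-fold, adjusted p = 0.0116).

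Krt6b, a type II keratin known from wounded skin, rose in TRUC, DSS, DNBS and IL-10 deficiency, and in TCT only when set against the wild-type controls (at least 5.07-fold, adjusted p = 0.0321). TRUC mice had 19.8, 12.7, 10.7 and 4.39 CPM against 0, 0.0765 and 0.226 in the Rag2-/- controls (103-fold fitted, log2 6.69 ± 1.31 SE, adjusted p = 0.000353; log2 7.87 without control mouse 4). The wild-type controls had 0 counts, so Krt6b was at least 30.4-fold higher in DNBS, 7.10-fold in DSS and 5.04-fold in IL-10 deficiency (adjusted p = 0.00758, 0.0145 and 0.0167). DNBS mice had 17.0, 0.155 and 3.32 CPM, and without mouse 11 the bound was 7.74-fold (adjusted p = 0.0197). The DSS call was lost without mouse 8 (adjusted p = 0.0756), and that of IL-10 deficiency without mouse 2 or wild-type mouse 2 (up to 0.0587). Its neighbour Krt6a rose in TRUC (1.62, 1.78, 1.19 and 0.0814 CPM against 0, 0.0765 and 0; count ratio 43.9, interval 7.56 to 1763; adjusted p = 0.0399) and in DNBS (at least 24.3-fold, adjusted p = 0.0148). The TRUC call of Krt6a was kept only without mouse 5 (adjusted p up to 0.111; log2 6.87 in place of 5.01 without control mouse 2). Krt6a and Krt6b shared 57.2% and 50.1% of their windows with other genes, among them each other, so their counts are uncertain as to which of the pair was expressed. Krt12, the type I keratin of the corneal epithelium, rose in TRUC alone (2.36, 2.31, 1.28 and 1.71 CPM against 0.177 to 0.306, adjusted p = 0.00086), and 42.0% of its windows lie in a gene model on the opposite strand.

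Krt17 and Krt16, type I keratins known from wounded skin, each fell in 1 model. Krt17 was 19.0, 34.7 and 13.3 CPM in the controls labelled Rag1-/- and 6.63, 1.11 and 1.30 in TCT, a fall of 2.88 on the log2 scale (SE 0.74, adjusted p = 0.00446). These controls were also above the other control groups (5.40 to 12.2 CPM), and against the wild-type controls the TCT difference was -1.47 (adjusted p = 0.127). Without TCT mouse 1 the difference from the labelled controls was -4.21. Krt16 fell in anti-CD40 by 3.85 on the log2 scale (SE 1.08, adjusted p = 0.0134), from 0.883 to 1.72 CPM to 0 to 0.188. The difference was -4.78 without anti-CD40 mouse 6 and -3.22 without mouse 8, and the call was lost without mouse 7 (adjusted p = 0.0601) and against the Rag2-/- controls (adjusted p = 0.200). In TCT the log2 difference of Krt16 was -0.04 against the labelled controls (adjusted p = 0.982), and against the wild-type controls it was called higher (5.07-fold, adjusted p = 0.0477). TCT mice had 0.262, 3.075 and 0.556 CPM of Krt16 and the wild-type controls 0.305, 0.133 and 0.328, with overlap. Krt16 shared 37.6% of its windows with other genes, Krt14 and Krt17 among them. Of the 30 keratins tested, 7 were called in no model, namely Krt10, Krt15, Krt78 and Krt79 of the stratified class, Krt27 and Krt71 of the inner root sheath, and Krt222.

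DNBS mouse 11 stood apart through keratins of stratified epithelium, those of moist mucosa among them, and of hair. Of the 42 keratins with more than 3 counts in some mouse, 25 were highest in this mouse, and it had 42 keratins over 3 counts, where the other 28 mice had 18 to 25. Its level was 184 CPM for Krt14, 169 for Krt13, 83.0 for Krt4, 31.8 for Krt5, 23.0 for Krt10 and 20.5 for Krt1. Krt15 was at 17.2 CPM, Krt6a at 15.1, Krt71 at 9.31 and Krt25 at 3.94. Hair keratins that had 0 to 4 counts in every other mouse had 60 (Krt33b), 52 (Krt81), 45 (Krt86) and 44 (Krt33a) counts here. Krt14 was 15.03 and 11.25 CPM, Krt4 2.48 and 0.341, Krt5 0.698 and 0.0853 and Krt1 0.155 and 0 in the other 2 DNBS mice. The calls of Krt1, Krt4, Krt5, Krt14, Krt25 and Krt6a in DNBS rest on this mouse. Without it Krt5 had a log2 difference of 0.12 (adjusted p = 0.925), Krt14 was 3.40-fold higher with both remaining mice above the controls (log2 1.76, adjusted p = 0.0565) and Krt6a at least 2.83-fold higher (adjusted p = 0.0735), none of them called, and Krt1, Krt4 and Krt25 had too few counts to be tested. Leaving out a wild-type mouse also ended calls, those of Krt1 and Krt25 without any 1 of the 3 (adjusted p up to 0.0933 and 0.115) and those of Krt5 and Krt6a without mouse 1 or 2. The log2 difference of Krt1 was 5.77 without wild-type mouse 2 and 7.26 without mouse 4, in place of 6.36, and that of Krt4 was 8.62 in place of 8.04 without DNBS mouse 16. DESeq2 on the 2 groups did not call Krt1, Krt4, Krt5, Krt13, Krt14 or Krt25. With mouse 11 the differences from the wild-type controls were 8.04 for Krt4, 4.86 for Krt5 and 4.18 for Krt14 on the log2 scale (adjusted p = 0.00578, 0.0106 and 0.00597), at least 5.96-fold for Krt25 (adjusted p = 0.0341), and a count ratio of 112 for Krt1 (interval 38.1 to 546, adjusted p = 0.0188). The same mouse had the highest summed level of 5 markers that define squamous epithelium, Trp63, Dsg3, Krtdap, Calml3 and Lgals7, chosen from a list of 12 after their values were seen (44.9 CPM). In the wild-type controls the sum was 0.381 to 0.820 CPM, in the other DNBS mice 2.56 and 0.511, in DSS 3.46 to 21.8, in TRUC 1.22 to 4.00, and elsewhere at most 1.05. Calml3 was 11.3 CPM in DNBS mouse 11 and at most 0.209 in any other mouse, and Krtdap 12.6 and at most 0.622. In DSS mouse 8, with 21.8 CPM, the sum was nearly all Dsg3 (20.4 CPM), while Krtdap and Calml3 were at 0. Summed over the whole list of 12 genes, mouse 11 was not the highest. Its sum was 235 CPM, against 145 and 195 in the other DNBS mice and 122 to 125 in the wild-type controls. In TRUC it was 214 to 248, with 3 of 4 mice above mouse 11. Serpinb5 (92.1 CPM) and Pkp1 (60.2) made up most of the sum in mouse 11, and Serpinb5 was 170 to 208 CPM in TRUC. Gene by gene, mouse 11 was the highest of all mice for Trp63, Krtdap, Sbsn, Dmkn, Lor, Lgals7 and Calml3. For Dsg3, Dsc3, Pkp1, Serpinb5 and Col17a1 another mouse was higher. Of the 12 genes 4 were called higher in DNBS (3.95% of all genes), namely Col17a1, Lgals7, Calml3 and Krtdap. The part of squamous tissue in the keratin levels of this mouse was not tested.

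**Figure D5:**
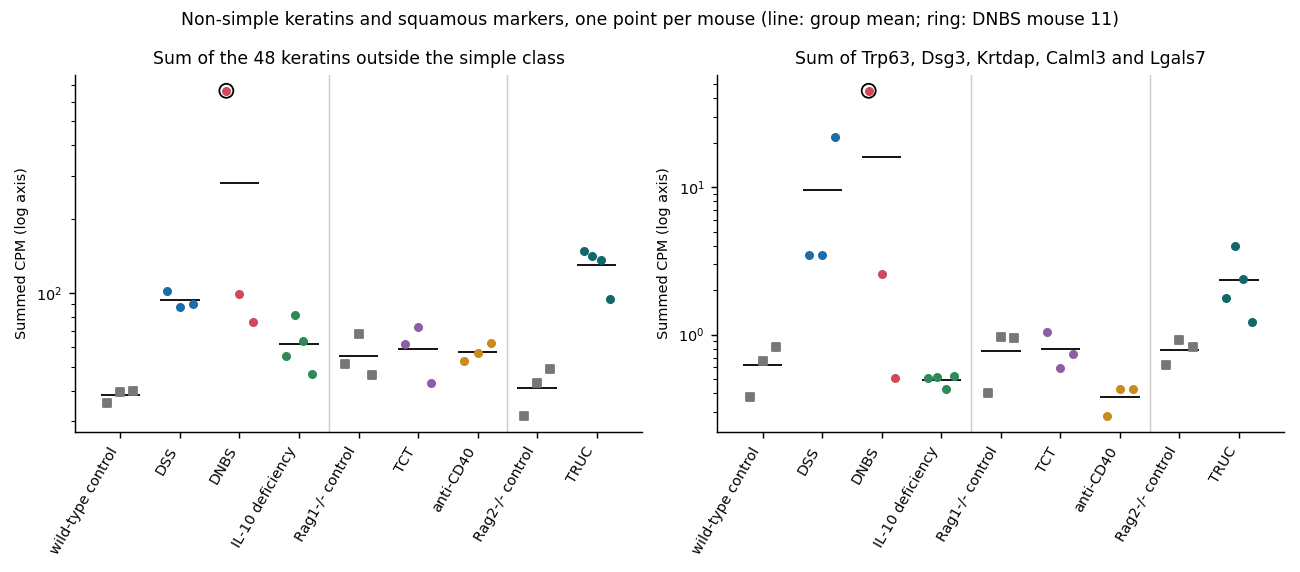
Summed CPM (log axes) of the keratins outside the simple class and of 5 squamous markers, with a point per mouse, a line at each group mean and a ring around DNBS mouse 11. The ringed mouse is highest in both, at 665 and 44.9 CPM. TRUC mice have 94.6 to 148 CPM of the non-simple keratins with 1.22 to 4.00 CPM of the markers. The 5 markers were chosen from a longer list after their values were seen, so the rank in the markers is not a test. Summed over the whole list of squamous genes, the ringed mouse has 235.4 CPM and is not the highest, with TRUC mice at 213.8 to 248.5 CPM.

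In TRUC the non-simple keratins summed to 94.6 to 148 CPM against 31.6 to 48.8 in the Rag2-/- controls. Of the 12 squamous genes 3 were called higher and 2 lower, against 22.4% and 23.4% of all genes. The summed level of the 12 was 214 to 248 CPM against 146 to 153, of which Serpinb5 alone was 170 to 208 against 84.35 to 91.7. The higher were Trp63 (log2 4.76, at 1.03, 2.13, 0.458 and 0.326 CPM), Dmkn (5.10-fold, adjusted p = 0.00059) and Serpinb5 (2.11-fold, adjusted p = 0.000106), and the lower were Pkp1 (log2 -0.65) and Lor (log2 -1.74). Dsg3 had a count ratio of 25.1 (interval 4.19 to 1021) and was not called (adjusted p = 0.0526). Calml3 was at 0 in 3 of 4 TRUC mice, and Krtdap was 0.221 to 0.622 CPM against 0.226 to 0.535. The part of squamous tissue in the keratin differences of TRUC was not tested. Mesothelium, which also expresses simple keratins, was followed through Msln, Upk3b, Lrrn4 and Wt1. Of these 4 of 4 were higher in DSS (17.7% of all genes) and 1 of 4 in DNBS (3.95%). They summed to 13.8 to 37.2 CPM in DSS and 6.39 to 80.7 in DNBS against 1.60 to 6.89 in the wild-type controls. Without DSS mouse 8 Wt1 and Upk3b were not called in DSS (adjusted p = 0.139 and 0.0596), while Msln and Lrrn4 were (0.00847 and 0.044). In TRUC 2 of 4 were lower (23.4% of all genes). Ptprc, the leucocyte marker, was called higher in every model but DNBS. The part of these cells in the keratin levels was not tested.

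Whether the 6 models differed from each other was asked with an F test of equal log2 differences, each model against its own control. The test was passed by 23 of the 30 keratins, against 60.5% of all genes. All 5 simple keratins passed, with adjusted p of 8.66e-06 for Krt18, 1.11e-05 for Krt8, 1.19e-05 for Krt7, 2.79e-05 for Krt19 and 0.000271 for Krt20. Of the hair and nail keratins 4 of 4 passed, of the stratified 11 of 14, of the inner root sheath 1 of 3 and of the others 2 of 4. Krt90 did not pass (adjusted p = 0.0843), nor did Krt6b (0.115), and a p that misses the threshold does not show that the models act alike. DSS, DNBS and IL-10 deficiency share the wild-type controls, and TCT and anti-CD40 those labelled Rag1-/-, so that their differences are not independent.

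Keratin filaments are anchored at desmosomes and by plakins, and 11 genes of these structures were followed beside the keratins. Higher were 5 of 11 in IL-10 deficiency (27.2% of all genes), 4 in anti-CD40 (10.9%), 3 in TRUC (22.4%), 3 in DNBS (3.95%) and 2 in TCT (16.1%). Lower were 4 of 11 in TRUC (23.4% of all genes), 3 in DSS (16.3%), 2 in TCT (14%), 1 in IL-10 deficiency (26.1%) and 1 in anti-CD40 (10.7%). Dsc2, a desmosomal cadherin, was higher in every model but DSS (log2 0.55 to 1.33). In DSS the lower genes were Dsp, the desmoplakin that binds keratin to the desmosome (log2 -0.74), Evpl (-1.75) and Eppk1 (-1.56), the last of which is epiplakin, a keratin-binding protein, and was also lower in TRUC (-1.62) and TCT (-1.07). Ppl, periplakin, was lower in TRUC, IL-10 deficiency, TCT and anti-CD40 (log2 -1.05 to -0.58). Of 14 other intermediate filament genes, 6 were lower in TRUC (23.4% of all genes) and 7 in IL-10 deficiency (26.1%), where 1 was higher in each (22.4% and 27.2%), while in DSS 5 were higher (17.7%) and 1 lower (16.3%). The gene higher in TRUC and IL-10 deficiency was Lmnb1, a lamin of the nucleus (log2 1.37 and 1.01). Vim, the filament of mesenchymal cells, was higher in DSS (0.64) and TCT (0.91). In TCT Vim was 295 to 512 CPM, above the controls labelled Rag1-/- (175 to 218) but overlapping the wild-type controls (228 to 336).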

How the data were processed

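Colon RNA of 29 mice in 9 groups was measured by poly(A) RNA-seq (NEBNext Ultra), 1 library per mouse. The deposited table holds raw counts per gene, not normalized. The submitters' processing notes name Trimmomatic, HISAT2, HTSeq and GRCm38, and the strand setting of the counting is not given in the sources used here. No sample column was left out, and 92 spike-in rows with 0 counts named no mouse gene. Gene IDs were paired with symbols for 54409 of 54532 genes. Libraries held 10725564 to 14977094 counts (median 12287039), which sets the floor of 0.179 to 0.314 CPM for 3 counts.

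Groups were taken from the labels. Counts of the 18616 genes that averaged 3 or more across the mice were scaled by TMM and tested with edgeR 4.0.16 (R 4.3.3), using the quasi-likelihood test on all 9 groups in 1 fit, with Benjamini-Hochberg adjustment over all 18616 genes and a threshold of 0.05. SE is the absolute log2 fold change over the square root of F. Exact two-sided permutation tests went through every assignment of the mice to the 2 groups, and exact counting intervals came from the binomial test of SciPy 1.17.1. The simple keratins were named in every model, and of the others all those called in at least 1 model. The members and gene lists were chosen with earlier results of these data known. Alternatives were RLE and upper quartile scaling, no filter, edgeR's filterByExpr, a threshold of 0.01, DESeq2 1.42.0 and edgeR on 2 groups, other controls, a replicate block, and leaving out each mouse. The fit was tested on simulated data. Shared sequence is the share of 50-base exon windows found in another gene. Nothing says that mice of a group were raised apart, so p-values measure the spread between these mice. Same-numbered TRUC and Rag2-/- mice, and IL-10 deficiency and wild-type mice, did not deviate together (r from -0.052 to 0.056).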

Additional observations from a re-analysis of the deposited data

Results flagged for a closer look

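Of the 23 keratins named by rule, 21 differed between the 6 models in the F test of equal log2 differences (edgeR quasi-likelihood, adjusted over all genes). Those outside the simple class were named for a call in at least 1 model, so this count cannot be read against all genes. Of all 30 keratins tested 23 passed, against 60.5% of all genes. The simple keratins are given in the report, with adjusted p of 8.66e-06 (Krt18), 1.11e-05 (Krt8), 1.19e-05 (Krt7), 2.79e-05 (Krt19) and 0.000271 (Krt20). Among stratified keratins the adjusted p was 2.23e-05 for Krt13, 3.14e-05 for Krt14, 5.96e-05 for Krt4, 0.000348 for Krt5, 0.000869 for Krt1, 0.0243 for Krt16, 0.0244 for Krt6a, 0.0245 for Krt12 and 0.0339 for Krt17. For Krt13, Krt14, Krt4, Krt5, Krt1 and Krt6a the highest level of the series was that of DNBS mouse 11. It was 0.00252 for Krt25 of the inner root sheath, highest in the same mouse. Among hair and nail keratins it was 0.00205 for Krt83, also highest in that mouse, 0.00737 for Krt36, 0.0107 for Krt87 and 0.0152 for Krt84, and for the remaining keratins 0.00766 for Krt80 and 0.0161 for Krt23. IL-10 deficiency and TRUC, the groups of 4 mice, were examined for a mouse far from the rest in each of the 23 keratins. By Dixon's criterion, which chance meets in about 1 of 20, 0 of these 46 sets of values met it. Groups of 3 mice were not examined, among them DNBS with mouse 11 and DSS with mouse 8.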

How the results depend on the processing

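The number of keratins called depended on the fit most in DNBS, with 16 calls and 6 at adjusted p under 0.01. There were 10 with DESeq2 and 5 with edgeR on the 2 groups, and 6 to 15 when a mouse was left out. The calls over all genes in DNBS moved too, from 736 higher and 412 lower to 175 and 46 at adjusted p under 0.01. On the 2 groups they were 1108 and 773 with DESeq2 and 411 and 217 with edgeR. In anti-CD40 there were 5 keratins, against 10 with DESeq2 and 12 with edgeR on the 2 groups and 4 to 6 without a mouse. Over all genes anti-CD40 had 2029 higher and 1986 lower, against 2312 and 1753 with DESeq2 and 2114 and 1853 with edgeR. IL-10 deficiency had 14 keratins, 9 at adjusted p under 0.01 and 10 to 14 without a mouse. At adjusted p under 0.01 that model had 3854 of all genes higher and 3447 lower, against 5058 and 4858. TCT had 7 keratins, 11 against the wild-type controls and 6 to 8 without a mouse. Of all genes 3155 were higher and 2570 lower in TCT against the wild-type controls, and 2991 and 2609 against its labelled controls. TRUC had 14 (11 to 13 without a mouse) and DSS 11 (7 to 10), while 23 keratins differed between models (17 to 26). The cause was not tested.

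The simple keratins relative to Epcam and Cdh1 differed by -0.25 to 0.024 in DSS, 0.10 to 0.27 in DNBS, 0.44 to 0.53 in IL-10 deficiency, 0.46 to 0.59 in TRUC, 0.55 to 0.73 in TCT and 0.31 to 0.40 in anti-CD40 without a mouse, and with Vil1 alone by -0.18 in IL-10 deficiency and -0.14 in anti-CD40. Among the keratins in single models, uncalled values turned sign for Krt8 in DNBS without mouse 16 (-0.0032; 0.20 without wild-type mouse 4), Krt18 in TCT against the wild-type controls (0.24) and Krt7 in anti-CD40 without mouse 7 (-0.056). Of 67 called results 32 were called under each alternative run and 0 changed sign.

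With the replicate number as a block on the 2 groups there were 15 calls in TRUC and 13 in IL-10 deficiency. Of all genes 3607 were then called higher and 3322 lower in TRUC, and 3895 and 3657 in IL-10 deficiency. The block ended the calls of Krt8 and Krt18 in TRUC and of Krt23, Krt36 and Krt84 in IL-10 deficiency, but the mice share only a number. Of the 53 keratins, 23 averaged under 3 counts per mouse and were not tested, 11 of them with at most 3 counts in any mouse.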
